A study of Mus musculus with 2 samples.

Results

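The kidney genes of klotho, vitamin D and phosphate regulation were followed in whole-kidney RNA of mice with acute kidney injury (AKI). The genes were fixed by name, as the rows of the deposited table whose symbol was *Kl*, *Cyp27b1*, *Cyp24a1*, *Vdr*, *Pth1r*, *Pdzk1*, *Slc9a3r1*, *Galnt3*, *Phex* or *Casr*. Of these 10 genes, 9 had a row among the 19829 genes of the table, and *Phex* was not analysed here. All 9 passed the filter on low values described below, which 14997 genes passed in all.

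One library, labelled WT+AKI, came from a left kidney of the wild type (WT) on the C57BL/6 background. The other, labelled TG+AKI, came from a left kidney of the transgenic (TG) line that overexpresses *Inmt*, the indolethylamine N-methyltransferase gene, in proximal tubules, for which control littermates served as the wild type. Whether RNA of several animals was pooled was not given in the sources used here. Per the methods of the study, both genotypes were given intraperitoneal voclosporin, a calcineurin inhibitor, once a day over 2 weeks (30 mg/kg), starting at an age of 8 weeks and ending at 10 weeks. Males of 14 weeks then underwent bilateral renal ischemia for 30 min, and kidneys were taken 48 h later per the general methods, whereas 24 h is stated where the groups are described, so that the time of these libraries is uncertain. The treatment field of the labels names no treatment, the series design names voclosporin, and the TG sample's title carries the words conditional knockout besides Inmt TG. The promoter that drives the transgene was not given in the sources used here. No sham-operated or vehicle-treated library was analysed here, so that the comparison of the 2 libraries is one of genotype within drug-treated kidneys after ischemia. With 1 library per group, differences between mice of one genotype could not be measured, and none of the differences below has a replicate check.

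The kidney is both the main source of klotho and the main target of the hormones that set blood phosphate and calcium. FGF23, a hormone from bone, binds FGF receptors together with klotho and lowers phosphate uptake in the proximal tubule, and it also lowers synthesis and raises breakdown of active vitamin D. Parathyroid hormone (PTH) acts on its receptor in the same tubule segment, where it withdraws phosphate carriers from the brush border and raises synthesis of active vitamin D. Loss of renal klotho is a known feature of kidney injury.

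Reads over the listed genes numbered 38542764 for the WT library and 36427421 for the TG library. A normalized read count of 1 (the deposited value, read counts divided by a scaling factor) equalled 42.4 WT reads or 33.1 TG reads. Genes were compared when they reached 1 in either library, and a 2-fold ratio in either direction was counted as a difference. Ratios are TG over WT, with their 95% Clopper-Pearson intervals in brackets. The intervals come from sequencing reads without molecular identifiers and cover counting error only. *Inmt*, which checks the labels, had a value of 10.4 in the WT kidney and 403 in the TG kidney. Tubular injury markers separated the libraries as well, and all 10 listed markers were at least 2-fold lower in the TG kidney. Their summed level was 13025 in the WT kidney and 811 in the TG kidney. *Spp1* held most of both sums, at 10183 and 670.5, and *Havcr1* was at 1169 and 2.78. Genotype and degree of injury can therefore not be told apart in these 2 libraries.

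Klotho, both vitamin D hydroxylases and the hormone receptors did not move together. Of the 9 genes, *Kl*, *Casr*, *Pdzk1* and *Pth1r* were at least 2-fold higher in the TG kidney, against a background of 7.35% of all 14997 genes. *Cyp24a1* was at least 2-fold lower, as were 11% of all genes. Higher genes made up 40.1% of the genes past 2-fold on the deposited scale and 23.4% with equal library totals. The other 4 genes, *Vdr*, *Cyp27b1*, *Slc9a3r1* and *Galnt3*, differed by less than 2-fold. The median log2 ratio of the 9 genes was 0.42, and that of all genes tested was -0.02. In bulk tissue, fewer cells of a type and less RNA per cell cannot be told apart, and this holds for every gene below.

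**Figure D1:**
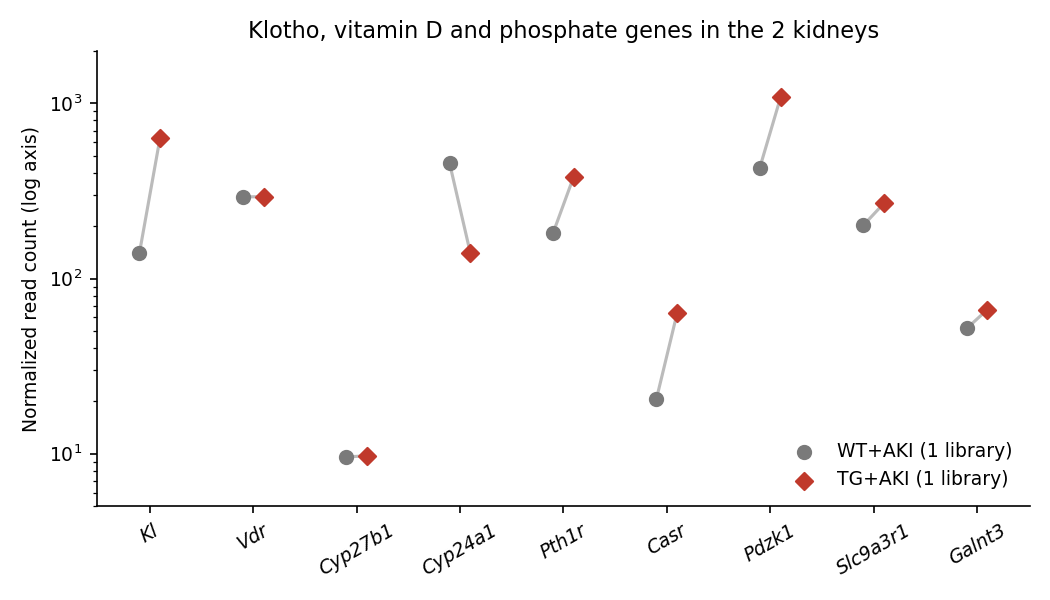
Normalized read count of each of the 9 listed genes (log axis) in the WT+AKI library (grey circle) and the TG+AKI library (red diamond), 1 library per group and therefore without error bars. *Kl* went from 139.7 to 638 and *Cyp24a1* from 454 to 140.2, while the markers of *Vdr* and *Cyp27b1* lie at the same height in both libraries.

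*Kl* (gene ID 16591, chr5:150952607-150993817 in GRCm38, plus strand) encodes alpha-klotho, the co-receptor that makes FGF receptors responsive to FGF23. Its value was 139.7 in the WT kidney, from 5923 reads, and 638 in the TG kidney, from 21136 reads. The TG+AKI kidney therefore held the higher level by a ratio of 4.57 [4.44 to 4.70]. Only 1.45% of all genes tested had a ratio at least as high. The sequence upstream of its start site is shown because *Kl* had the largest difference of the 9 genes. It spans chr5:150952357-150952606 (GRCm38.p6, plus strand, from RefSeq), the 250 bases before the start, which hold no annotated exon. Capitals mark GC boxes, matches to GGGCGG on either strand.

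Kl upstream sequence: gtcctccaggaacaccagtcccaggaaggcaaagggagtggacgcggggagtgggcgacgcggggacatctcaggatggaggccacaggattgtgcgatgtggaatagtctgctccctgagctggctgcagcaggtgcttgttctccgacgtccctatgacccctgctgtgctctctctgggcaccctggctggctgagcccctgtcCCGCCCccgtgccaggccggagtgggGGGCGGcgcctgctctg

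Both GC boxes lay within the last 43 bases before the start, 1 on each strand. Letters of 6 other motifs, searched on both strands, were not found in this window. They were the nuclear receptor half-site AGGTCA (in 14.02% of all windows), the vitamin D response half-site GGTTCA (8.85%), the TATA box TATAAA (12.4%), the CCAAT box (33.8%), the HNF1 half-site GTTAAT (6.43%) and the cAMP response element TGACGTCA (1.55%). A GC box occurred in 32.7% of the 32851 promoter windows of the same length. The base composition of the *Kl* window was 66.8% G or C, against a median of 52.4% over all windows. These matches describe letters and not binding.

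*Kl* is transcribed in the distal convoluted tubule and, at a lower level, in the proximal tubule, and markers of both segments were also higher in the TG kidney. All 7 distal convoluted tubule markers had a ratio above 1, 4 of them at least 2-fold, and their summed level was 253 in the WT kidney and 792 in the TG kidney. The sodium-chloride cotransporter *Slc12a3*, which defines that segment, was at 98.5 in the WT kidney and 507 in the TG kidney. Per 100 reads of *Slc12a3* there were 141.8 reads of *Kl* in the WT kidney and 125.9 in the TG kidney, so that relative to this marker the *Kl* level was slightly lower in the transgenic kidney (ratio of ratios 0.888 [0.849 to 0.928]). Relative to the summed list it was higher, with 55.3 and 80.6 reads per 100 marker reads (1.46 [1.41 to 1.51]). Among the single markers, *Kl* was higher relative to 5 and lower relative to 2, *Slc12a3* and *Pvalb*. *Pvalb*, which was among the 4 markers at least 2-fold higher, had 12 reads in the WT kidney and 259 in the TG kidney. It passed the filter through the TG library alone, and the ratio of ratios of *Kl* to it had a wide interval (0.165 [0.0926 to 0.295]). The part of the tubule markers in the *Kl* difference was not tested. These ratios compare genes within a library, and do not depend on the scaling between libraries, and the ratio of ratios carries a 95% Wald interval on the log scale.

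The receptors that klotho serves showed smaller differences. *Fgfr1*, the receptor best known to pair with klotho, had a value of 59.4 in the WT kidney and 49.0 in the TG kidney (ratio 0.825 [0.774 to 0.878]). *Fgfr3* had values of 36.8 and 48.3 (1.31 [1.22 to 1.41]). *Fgfr4* was higher in the TG kidney, at 18.0 and 37.7 (2.09 [1.91 to 2.29]). Its ratio was under the 2-fold limit, at 1.73, when the libraries were given equal totals. There were 235 reads of *Kl* per 100 reads of *Fgfr1* in the WT kidney and 1302 in the TG kidney, a pair that was chosen after the values were seen. Of the 9 genes listed as the FGF23 and klotho family, 7 had a row, of which 2 were at least 2-fold higher in the TG kidney and none was at least 2-fold lower, with a median log2 ratio of -0.17. Besides *Fgfr4*, the gene past 2-fold was the klotho relative *Lctl*, at 0.708 from 30 reads and 4.35 from 144 reads (6.15 [4.12 to 9.44]). *Lctl* passed the filter through the TG library alone, and with a filter of 10 the list held 1 gene at least 2-fold higher. *Adam10*, a protease that sheds klotho from the cell surface, had values of 111 and 86.9 (0.783 [0.747 to 0.820]). *Fgf23* and *Klb* were not analysed here.

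Synthesis and breakdown of active vitamin D are set by a pair of mitochondrial enzymes. *Cyp27b1* (gene ID 13115, chr10:127048246-127054884, plus strand) encodes the hydroxylase that makes the active hormone. Its value was 9.58 in the WT kidney, from 406 reads, and 9.72 in the TG kidney, from 322 reads. The libraries did not differ beyond counting error on the deposited scale at this depth, with a ratio of 1.02 [0.874 to 1.18]. With equal library totals the ratio was 0.839, so that the even level depends on the scaling. The 250 bases upstream of *Cyp27b1*, chr10:127047996-127048245 on the plus strand, are shown as the counterpart to *Kl* among genes even on the deposited scale. The single CCAAT match, on the minus strand, is in capitals.

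Cyp27b1 upstream sequence: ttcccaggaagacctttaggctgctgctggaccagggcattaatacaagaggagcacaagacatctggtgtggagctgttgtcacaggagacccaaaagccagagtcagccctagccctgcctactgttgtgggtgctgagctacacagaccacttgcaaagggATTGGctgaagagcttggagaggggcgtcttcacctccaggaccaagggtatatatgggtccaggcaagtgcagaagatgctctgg

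This window held 1 CpG dinucleotide, against 13 in the *Kl* window and a median of 6 over all windows. None of the other 6 motifs was found in it.

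*Cyp24a1* (gene ID 13081, chr2:170482957-170497145, minus strand) encodes the hydroxylase that breaks down active vitamin D and its precursor, and is itself a target of the vitamin D receptor. Its value was 454 in the WT kidney, from 19263 reads, and 140.2 in the TG kidney, from 4642 reads. The TG+AKI kidney thus held the lower level, 3.24-fold lower [3.14 to 3.35], and 5.07% of all genes tested had a ratio at least as low. *Cyp24a1* was the only one of the 9 genes with a lower value in the TG kidney on the deposited scale, and its ratio was 0.255 with equal totals. Exons of *Pfdn4*, on the opposite strand and at 14.6 and 9.06, cover 2.33% of its exon bases. With a *Cyp27b1* level that was even on the deposited scale, the ratio of the enzymes within a library moved with *Cyp24a1*. There were 2.11 reads of *Cyp27b1* per 100 reads of *Cyp24a1* in the WT kidney [1.91 to 2.33] and 6.94 in the TG kidney [6.18 to 7.77], a 3.29-fold difference [2.83 to 3.82].

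*Vdr* (gene ID 22337, chr15:97854427-97908296, minus strand) encodes the vitamin D receptor, a nuclear receptor that pairs with retinoid X receptors. Its values were 293.0 in the WT kidney and 293.4 in the TG kidney, from 12421 and 9716 reads. They did not differ beyond counting error on the deposited scale (ratio 1.001 [0.975 to 1.03]). On the scale of equal totals the ratio was 0.828, so that the even level depends on the scaling. Relative to proximal tubule markers, *Vdr* was lower in the TG kidney, with 4.16 and 1.94 reads per 100 marker reads.

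Vitamin D reaches these enzymes through endocytosis in the proximal tubule, and the receptors of that route were higher in the TG kidney. *Lrp2*, which encodes megalin, had a value of 644 in the WT kidney and 2754 in the TG kidney (ratio 4.27 [4.22 to 4.33]). *Cubn*, which encodes its partner cubilin, had values of 287 and 740.1 (2.58 [2.52 to 2.63]). In the opposite direction, *Gc*, which encodes the vitamin D-binding protein, was at 578 in the WT kidney and 34.6 in the TG kidney, 16.7-fold lower [15.8 to 17.8]. *Gc* is best known as a liver gene. Of the other liver markers, *Alb* had 34 reads in the WT kidney and 274 in the TG kidney, *Apoa1* had 42 and 33, and *Fga*, a fibrinogen gene that injured tubules can also express, was at 689 and 39.1. The hydroxylase *Cyp2r1* was near the limit of the filter, at 0.849 from 36 reads and 1.63 from 54 reads (1.92 [1.24 to 3.01]). Of the 16 genes of vitamin D handling, 15 had a row, only *Lrp2*, *Cubn* and *Gc* passed the 2-fold limit. The median log2 ratio was 0.44.

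*Cyp27b1* can also be transcribed in macrophages, and macrophage markers differed between the libraries. Of the 8 markers, 7 were at least 2-fold lower in the TG kidney, and their summed level was 199 in the WT kidney and 77.4 in the TG kidney. *Cd68* was at 37.1 in the WT kidney and 1.39 in the TG kidney, whereas *Csf1r* was at 37.5 and 43.0. Their part in the vitamin D genes was not tested.

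The PTH receptor gene and the calcium-sensing receptor gene were both higher in the TG kidney. *Pth1r* (gene ID 19228, chr9:110722085-110747145, minus strand) encodes the receptor for PTH. Its value was 182 in the WT kidney, from 7704 reads, and 382 in the TG kidney, from 12661 reads, a ratio of 2.10 [2.05 to 2.16]. This was close to the 2-fold limit, and the ratio was 1.74 with equal totals and 1.90 after centring abundant genes on a median ratio of 1. Exons of *Myl3*, which was not analysed here, cover 3.25% of its exon bases on the opposite strand. *Casr* (gene ID 12374, chr16:36490585-36562141, minus strand) encodes the calcium-sensing receptor, which restrains calcium uptake in the thick ascending limb. Its value was 20.6 in the WT kidney, from 872 reads, and 63.4 in the TG kidney, from 2101 reads. The ratio was 3.08 [2.85 to 3.34] on the deposited scale and 2.55 with equal totals. Of 8 thick ascending limb markers, 4 were at least 2-fold higher in the TG kidney (3 with equal totals). None was lower by that margin, and 2 had a ratio below 1 on the deposited scale. The summed level of the 8 markers was 2113 in the WT kidney and 3556 in the TG kidney.

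Downstream of these receptors, no G protein or protein kinase A subunit of the list was past 2-fold, and the regulatory subunit *Prkar2a* was the farthest from an even level. Of the 19 genes of the PTH and calcium sensing pathway, 15 had a row and 13 passed the filter, with a median log2 ratio of -0.12. None was at least 2-fold higher in the TG kidney and 2 were at least 2-fold lower. These 2 genes were both of low level, passed the filter through the WT library alone, and dropped out with a filter of 10. *Calcr*, the calcitonin receptor gene, had 93 reads in the WT kidney and 13 in the TG kidney, 5.59-fold lower [3.11 to 10.9]. *Rgs14*, which encodes a regulator of G protein signalling, had 54 and 19 reads, 2.22-fold lower [1.30 to 3.97]. *Prkar2a* had values of 121 and 75.2 (ratio 0.621 [0.592 to 0.652]). *Ramp2*, which encodes a partner of calcitonin-family receptors, had values of 14.2 and 8.79 (0.620 [0.537 to 0.714]).

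**Figure D2:**
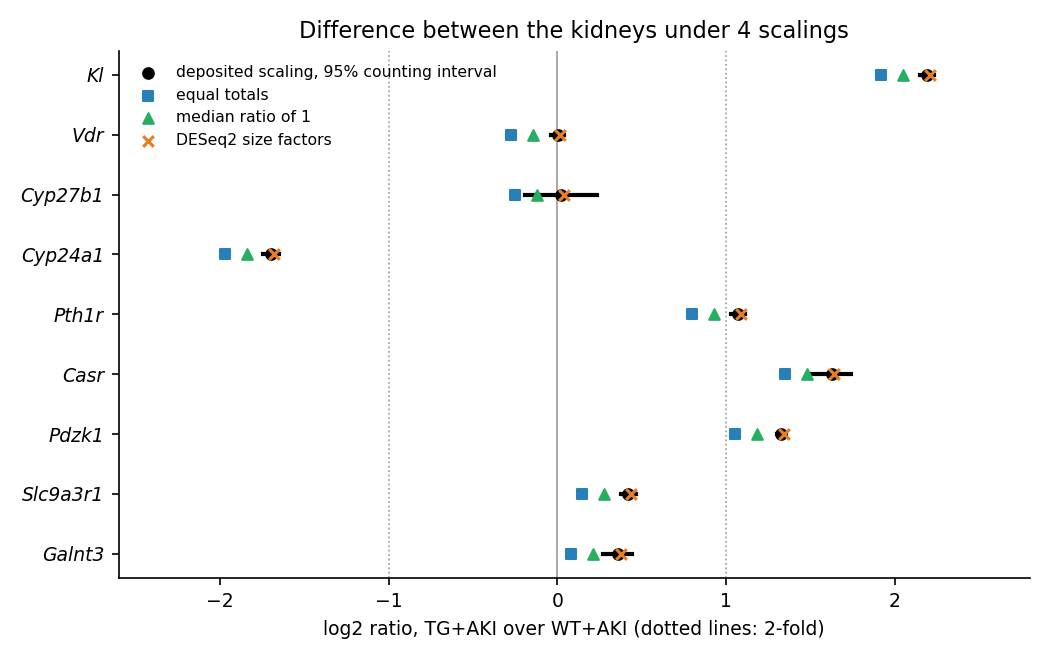
Log2 ratio of TG+AKI over WT+AKI for the 9 listed genes on the deposited scale (black circles, bars are 95% counting intervals) and after scaling to equal totals, to a median ratio of 1 and by DESeq2 size factors. *Kl*, *Casr* and *Pdzk1* stay right of the 2-fold line and *Cyp24a1* left of it, whereas *Pth1r* crosses the line and *Vdr* and *Cyp27b1* change side of 0.

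Phosphate carriers of the brush border are held in place by PDZ scaffold proteins, of which the scaffold that differed more was *Pdzk1*. *Pdzk1* (gene ID 59020, chr3:96829456-96870926, plus strand) had a value of 431 in the WT kidney, from 18260 reads, and 1082 in the TG kidney, from 35821 reads. The ratio was 2.51 [2.47 to 2.56], and 4.42% of all genes tested had a ratio at least as high. Exons of other genes on the opposite strand cover 41.7% of its annotated exon bases. Whether the counting used the strand was not given in the sources used here, so that reads of these genes could not be told apart if it did not. Of the overlapping genes, *Gpr89* had a row, at 29.6 in the WT kidney and 30.9 in the TG kidney, well below *Pdzk1*. *Slc9a3r1* (gene ID 26941, chr11:115163341-115181178, plus strand) encodes NHERF1, which tethers the phosphate carrier *Slc34a1* and the PTH receptor. Its values were 201 and 269, from 8529 and 8916 reads, a ratio of 1.34 [1.30 to 1.38] that was under 2-fold and was 1.11 with equal totals.

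The carriers differed in both directions. *Slc34a1*, the main phosphate carrier of the proximal tubule, had a value of 764 in the WT kidney and 5397 in the TG kidney (ratio 7.06 [6.98 to 7.14]). *Slc34a3*, the second sodium-phosphate carrier of that segment, had values of 13.4 and 68.8 (5.14 [4.69 to 5.65]). Both carriers of the *Slc34* type that are known from the proximal tubule were thus higher in the transgenic kidney. The other brush-border carrier, *Slc20a2*, had values of 94.9 and 56.6 and the opposite direction (0.596 [0.564 to 0.630]). The ubiquitous carrier *Slc20a1* was at 153 in the WT kidney and 37.9 in the TG kidney, 4.04-fold lower [3.81 to 4.30]. *Slc34a2*, a carrier best known from intestine and lung, was at 36.6 and 4.29, 8.53-fold lower [7.18 to 10.2]. Of the 10 genes of renal phosphate transport, 4 passed the 2-fold limit, *Slc34a1* and *Slc34a3* higher and *Slc34a2* and *Slc20a1* lower, with a median log2 ratio of 0.58. With equal totals *Slc20a2*, at 0.493, was a further gene past 2-fold lower. There were 178 reads of *Slc34a1* per 100 reads of *Pdzk1* in the WT kidney and 499 in the TG kidney, a pair chosen after the values were seen.

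Proximal tubule markers were also higher in the TG kidney. Of 12 markers that are not phosphate or vitamin D genes, 11 were at least 2-fold higher on the deposited scale and 7 with equal totals, and their summed level was 7048 in the WT kidney and 15121 in the TG kidney. Their single ratios ran from 0.690 for *Pck1* to 10.9. The ratio of *Pth1r* was above that of 2 of these 12 markers, the ratio of *Pdzk1* above 5, that of *Slc9a3r1* above 1 and that of *Slc34a1* above 9. Per 100 reads of the summed markers there were 2.58 reads of *Pth1r* in the WT kidney and 2.53 in the TG kidney, and this did not differ beyond counting error (ratio of ratios 0.981 [0.953 to 1.01]). *Pck1*, a gluconeogenic enzyme gene, made up 34.6% of the sum in the WT kidney and 11.1% in the TG kidney, and without it the ratio of ratios was 0.722 [0.701 to 0.743]. That of *Pdzk1* was 1.17 [1.15 to 1.19] with *Pck1* and 0.862 [0.846 to 0.878] without it, so that its direction relative to the segment depended on 1 marker. *Slc9a3r1* (0.624 and 0.459), *Vdr* (0.467 and 0.344), *Cyp27b1* (0.473 and 0.348) and *Cyp24a1* (0.144 and 0.106) were lower relative to the markers with and without *Pck1*, and *Kl* (2.13 and 1.57) was higher. The part of these markers in the differences was not tested.

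**Figure D3:**
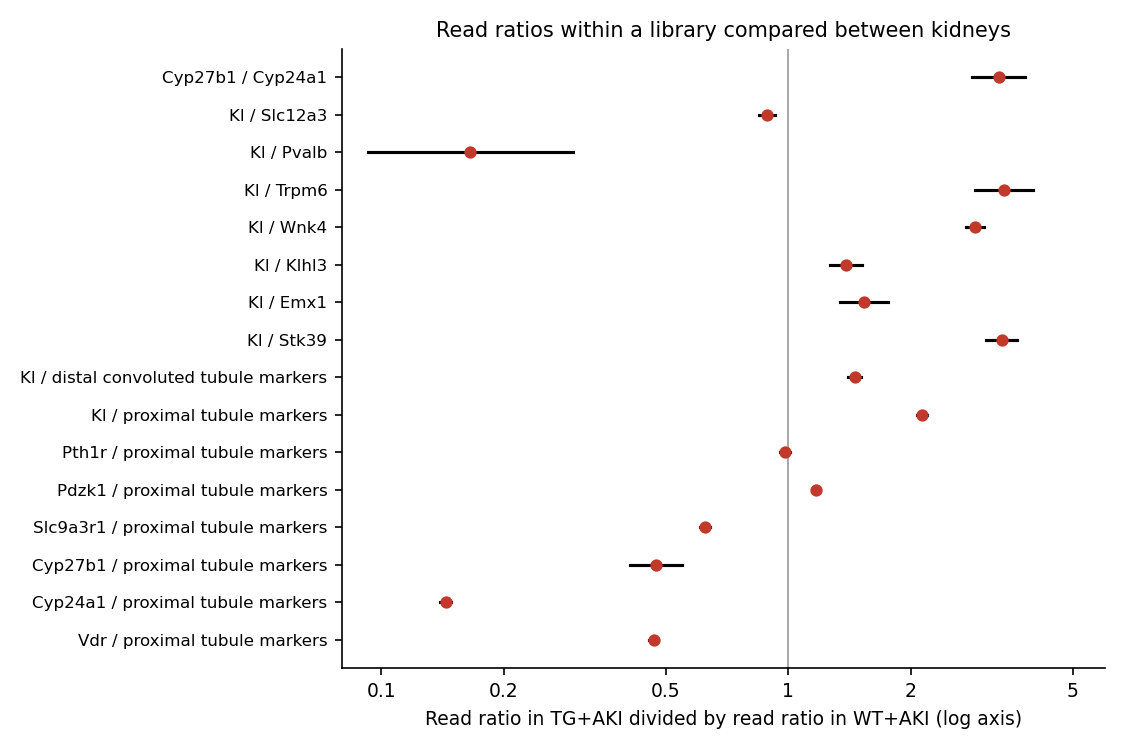
Read ratio of 2 genes, or of a gene and a summed marker list, in the TG kidney divided by the same ratio in the WT kidney (log axis, bars are 95% Wald intervals from read counts). *Cyp27b1* over *Cyp24a1* lies at 3.29, *Kl* lies on both sides of 1 among the single distal convoluted tubule markers, and *Pth1r* lies at 0.981 relative to the summed proximal tubule markers.

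*Galnt3* (gene ID 14425, chr2:66082766-66125056, minus strand) encodes the glycosyltransferase that protects FGF23 from cleavage. It had a value of 51.9 in the WT kidney, from 2199 reads, and 66.5 in the TG kidney, from 2202 reads. The ratio of 1.28 [1.21 to 1.36] exceeded counting error on the deposited scale and was 1.06 with equal totals. *Fam20c*, a kinase that marks FGF23 for cleavage, was higher in the TG kidney, at 20.6 and 54.8 (2.66 [2.45 to 2.89]). *Enpp1*, which makes the mineralization inhibitor pyrophosphate, had values of 27.7 and 56.5 (2.04 [1.90 to 2.20]), and its ratio was 1.69 with equal totals. *Alpl*, the alkaline phosphatase that removes pyrophosphate, had values of 253 and 497 (1.97 [1.92 to 2.02]), just inside the 2-fold limit. *Spp1*, which encodes the matrix protein osteopontin and was also among the injury markers, was at 10183 in the WT kidney and 670.5 in the TG kidney, 15.2-fold lower [15.0 to 15.4]. Of the 9 genes of FGF23 processing and mineralization, 7 had a row, of which *Fam20c*, *Enpp1* and *Spp1* passed the 2-fold limit, with a median log2 ratio of 0.67. *Dmp1* and *Mepe*, known from bone, were not analysed here.

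Distal calcium transport genes, several of which are known targets of active vitamin D, differed in both directions. *Trpv5*, the calcium channel of the distal tubule, had a value of 27.2 in the WT kidney and 14.6 in the TG kidney (ratio 0.535 [0.480 to 0.596]). *Trpv6*, its relative, was at 4.25 from 180 reads and 1.51 from 50 reads, 2.81-fold lower [2.05 to 3.93]. It was the only one of the 7 genes past 2-fold on the deposited scale, and it dropped out with a filter of 10. *Calb1*, which encodes the calcium buffer calbindin, had values of 88.2 and 163 (1.85 [1.77 to 1.93]). *Slc8a1*, the sodium-calcium exchanger, had values of 36.1 and 62.6 (1.73 [1.62 to 1.85]). The median log2 ratio of the list was -0.01. With equal totals *Trpv5* also passed the 2-fold limit, at a ratio of 0.442.

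Over all 6 pathway lists, 61 of 70 genes had a row and 59 passed the filter. Of these, 8 (13.6%) were at least 2-fold higher in the TG kidney and 7 (11.9%) at least 2-fold lower, beside 7.35% and 11% of all genes tested. With equal totals the counts were 6 and 9 of the 59 genes, beside 726 and 2372 of all 14997 genes. The median log2 ratio was 0.08. Podocyte and endothelial markers, 6 genes each, held no gene past 2-fold in either direction, and neither did the 12 housekeeping genes on the deposited scale. With equal totals the housekeeping genes *Hprt* (0.478) and *B2m* (0.495) were past 2-fold lower. All 6 fibroblast markers were lower in the TG kidney, 3 of them at least 2-fold (6 with equal totals), with a summed level of 502 in the WT kidney and 219 in the TG kidney. Of 9 connecting tubule and collecting duct markers, 2 were at least 2-fold higher (1 with equal totals), with a summed level of 422 and 613. Of 7 T and B cell markers, only *Ptprc* passed the filter, at 13.7 and 7.28 (ratio 0.530, and 0.438 with equal totals). Of the adrenal, fat and muscle markers only *Star* had a row, at 2.15 and 1.45.

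**Figure D4:**
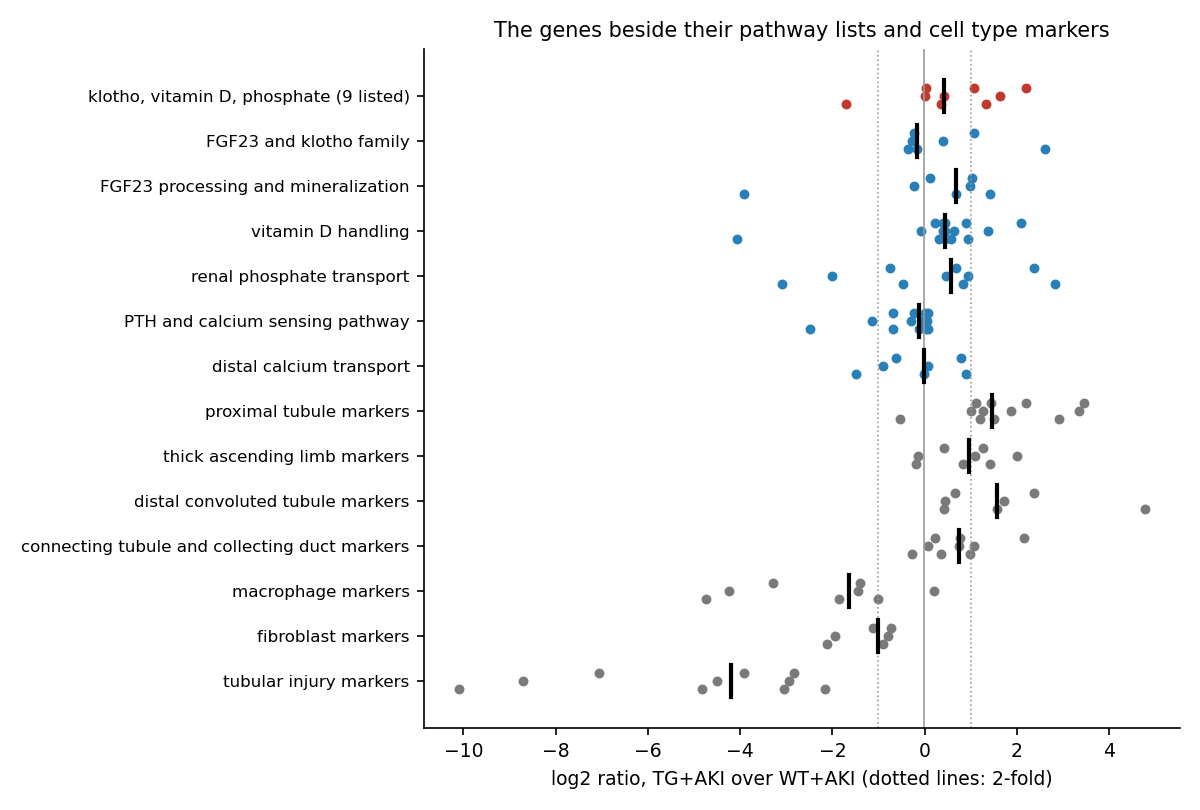
Log2 ratio of TG+AKI over WT+AKI for each gene that passed the filter, by list: the 9 listed genes (red), 6 pathway lists (blue) and 7 marker lists (grey), with the median of each list as a black bar, the median of all genes as a grey line and 2-fold as dotted lines. The 9 genes spread from -1.70 to 2.19 around a median of 0.42, the proximal tubule markers around 1.47 and the tubular injury markers around -4.21.

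Levels of different genes were compared after division by the length of the longest annotated transcript, as normalized read count per kb. In WT+AKI the order was *Pdzk1* (159 per kb), *Cyp24a1* (128), *Slc9a3r1* (105), *Pth1r* (78.8), *Vdr* (67.0), *Kl* (23.97), *Galnt3* (13.4), *Casr* (4.54) and *Cyp27b1* (3.92). In TG+AKI it was *Pdzk1* (399 per kb), *Pth1r* (166), *Slc9a3r1* (139.9), *Kl* (109.5), *Vdr* (67.1), *Cyp24a1* (39.4), *Galnt3* (17.1), *Casr* (13.99) and *Cyp27b1* (3.98). *Cyp24a1* thus moved from the second to the sixth place and *Kl* from the sixth to the fourth. The intervals of the ratio between neighbours excluded 1 throughout, and the closest pair in the WT kidney was *Casr* and *Cyp27b1* (1.16 [1.03 to 1.31]). The length chosen mattered for some neighbours: with all annotated exons of a gene joined, *Cyp24a1* stood above *Pdzk1* in the WT kidney and *Slc9a3r1* above *Pth1r* in the TG kidney. *Cyp27b1* was the lowest of the 9 genes in both libraries with either length.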

How the data were processed

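Libraries of whole-kidney RNA were made with a stranded mRNA kit, 1 library per group, and read at 100 bp. Per the submitters' processing notes and the study's methods, reads were aligned with STAR 2.7.3a to mm10 and counted with HTSeq, and the authors deposited a normalized signal per gene. The methods name DESeq2 for the normalization and the notes also name edgeR. Annotation and strand setting of the counting were not given in the sources used here. Dividing a column by its minimum gave whole numbers for 100% of values (tolerance 0.01), taken as reads. Genes absent from the table were not analysed.

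Log2 ratios were taken from the deposited values without a pseudocount, for genes reaching 1 in either library. A gene counted as changed at 2-fold. No p-value was computed for the conditions, since each has 1 library. No listed gene described here fell to the floor of 3 reads. Groups follow the library names. The alternatives were 4 other scalings (equal totals, TMM from edgeR 4.0.16, DESeq2 1.42.0 size factors, and a median ratio of 1 among genes reaching 100 in each library), pseudocounts of 0.1 and 1, a filter of 10 or none, a 2-fold rule on the interval bound and an exact binomial test of the reads. A marker sum without *Pck1* and the length of all exons joined were added after the values were seen.

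The genes, lists and tests were chosen with earlier results of these data known. Named are the 9 genes, *Inmt*, the 4 largest absolute log2 ratios of each pathway list with *Slc34a1*, *Slc34a3*, *Fgfr1*, *Lrp2*, *Trpv5* and *Calb1*, and up to 2 abundant markers per marker list. *Apoa1*, *Pvalb*, *Star*, *Gpr89*, *Pfdn4*, *Myl3*, *Slc20a2*, *Hprt* and *B2m* are named outside this rule, after their values were seen. Coordinates and upstream sequences are from RefSeq (GRCm38.p6, the same assembly as mm10), in which 19780 of 19829 gene IDs (99.8%) were found and 9 of the 10 genes had a promoter window. Transcript lengths and gene overlaps are from GENCODE M21. At most 0.157% of the 100-base words of any of the 9 genes occurred in another gene. The steps were run on simulated reads that had counting error only, with large changes placed in abundant genes. That run does not cover differences between mice, the choice of scaling or changes in genes of low level. Python 3.11.15, scipy 1.17.1 and R 4.3.3 were used.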

Additional observations from a re-analysis of the deposited data

How the results depend on the processing

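Both scalings that lower the TG+AKI library moved every log2 ratio by one amount, -0.27 for equal totals and -0.14 for a median ratio of 1. TMM gave back the deposited ratios, so that it was no separate alternative. The median of all genes tested went from -0.02 to -0.29 and -0.16, and the share of higher genes among changed genes went from 40.1% to 23.4% and 30.8%. Against 1103 higher and 1645 lower genes on the deposited scale, equal totals gave 726 higher and 2372 lower. With a filter of 10 the counts were 629 higher and 790 lower, over 10294 genes, and without a filter 1821 and 2489, over 19829 genes. The exact binomial test of the reads, a comparison of libraries rather than of genotypes, called 5333 genes higher and 5678 lower at a Benjamini-Hochberg adjusted p-value under 0.05. A filter of 10 left 4 of the 7 lower genes of the pathway lists, because low genes drop out.

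Of 60 alternative log2 ratios of *Inmt* and the 9 genes, 19 moved beyond counting error. Shifts of at most 0.27 could not turn the sign of a gene past 2-fold, and equal pseudocounts cannot turn any sign. The log2 ratios of *Vdr* and *Cyp27b1* changed sign with equal totals, to -0.27 and -0.25. Without *Pck1* in the marker sum, the ratio of ratios was 1.57 for *Kl*, 0.722 for *Pth1r*, 0.862 for *Pdzk1* (which reversed), 0.459 for *Slc9a3r1*, 0.348 for *Cyp27b1*, 0.106 for *Cyp24a1* and 0.344 for *Vdr*. No paired analysis was possible because each group has 1 library. Leaving out a library was not possible for the same reason. Depth limits *Cyp27b1* most among the 9 genes, and *Lctl*, *Cyp2r1*, *Calcr* and *Rgs14* in the pathway lists have wide intervals.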
